A study of Mus musculus with 6 samples.

Results

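The genes described here encode 9 transcription factors that set or maintain the identity of airway and lung epithelial cells: Nkx2-1, Sox2, Gata6, Elf3, Ehf, Klf5, Grhl2, Hnf4a and Cebpa. They were taken by symbol from the 19938 genes that the arrays' annotation names unambiguously, and all 9 were measured, each by 1 probe set. Forkhead factors, the family to which the deleted genes belong, were not among them. No factor of the 9 passed the test between mutant and control airways, where 0.266% of all genes did. The control and mutant arrays overlapped for each factor, while they did not for 15.0% of all genes. Nkx2-1 had the smallest p, with a log2 difference of 0.24. The intervals of the differences were narrow for Ehf and Nkx2-1 and wide for Elf3 and Sox2, and Elf3, Grhl2, Sox2 and Klf5 were high on the arrays where general epithelial markers were high.

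The study compared larger proximal airways of 9-week-old mice on a mixed C57BL/6 and 129X1 background, dissected by hand under a microscope from stained sections of frozen lung. Each of 6 RNA samples was hybridised to 1 array. Whether every sample is from its own animal is not in the labels, and the tests therefore speak only of sample-to-sample scatter, part of which can be technical. The 3 control samples carried the Scgb1a1-Cre driver alone. The 3 mutant samples carried the driver together with floxed alleles of both Foxp1 and Foxp4 (Scgb1a1-cre:Foxp1flox/flox:Foxp4flox/flox). The driver is thus present in all 6 samples, and it acts in the secretory (club) cells that use the Scgb1a1 promoter. Which other cells of the dissected tissue lost the floxed genes was not measured. All values are log2 expression values, on which a difference of 1 is a doubling.

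Lineage transcription factors bind regulatory DNA of the genes that characterise a cell type and keep them active. In the lung, the homeodomain factor Nkx2-1 marks the respiratory epithelium from its first appearance and activates genes of secretoglobins and surfactant proteins. The HMG-box factor Sox2 marks the conducting airways, and the zinc finger factor Gata6 acts with Nkx2-1 in the developing epithelium. Elf3 and Ehf are epithelial members of the ETS family, Klf5 is a Krüppel-like factor, and Grhl2 is a grainyhead-like factor that keeps genes of cell junctions active. Cebpa, a leucine zipper factor, takes part in differentiation of the lung epithelium and also in that of adipocytes and myeloid cells. Hnf4a, a nuclear receptor, is best known from liver, gut and pancreas.

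The arrays were not alike within groups, in ways that bear on bulk tissue. The mean of 7 B and plasma cell markers was 6.64, 9.57 and 9.45 in controls 1 to 3 and 6.05, 8.13 and 6.32 in mutants 1 to 3, so that control 1 lay among the mutants. The mean of 8 cardiac muscle markers, known also from the wall of the pulmonary vein, reached 11.57 in control 1 and 11.27 in mutant 2 and lay between 8.65 and 10.11 on the other arrays. Markers of the labelled tissue were present: the club cell gene Scgb1a1 read between 12.13 and 12.58. The alveolar type 2 gene Sftpc read between 12.37 and 12.76, so the dissected airways carried alveolar tissue too. Foxp4 differed by -0.69 and Foxp1 by -0.23 between mutant and control airways, without passing limma's test (adjusted p = 0.339 and 0.444). For both genes every mutant lay below every control, as for 5.64% of all genes. The probe sets of Foxp1 and Foxp4 can include exons outside the floxed part.

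For Sox2 and Elf3, which varied together over the 6 arrays (Pearson r = 0.82, a description over 6 arrays), the 250 bases before the annotated start site are shown, so that the regulatory sequence stands beside the values. They come from RefSeq on the assembly GRCm38.p6, which held such a window for 5 of the 9 genes. The Sox2 window lies at chr3:34649745-34649994 on the plus strand, and the Elf3 window at chr1:135258473-135258722 on the minus strand. Capitals mark every match, on either strand, to a short motif of a factor family.
Sox2: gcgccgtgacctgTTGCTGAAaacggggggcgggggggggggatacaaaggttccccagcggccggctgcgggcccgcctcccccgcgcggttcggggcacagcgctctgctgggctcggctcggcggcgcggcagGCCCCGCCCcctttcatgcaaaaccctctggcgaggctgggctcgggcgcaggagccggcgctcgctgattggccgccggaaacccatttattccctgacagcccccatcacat
Elf3: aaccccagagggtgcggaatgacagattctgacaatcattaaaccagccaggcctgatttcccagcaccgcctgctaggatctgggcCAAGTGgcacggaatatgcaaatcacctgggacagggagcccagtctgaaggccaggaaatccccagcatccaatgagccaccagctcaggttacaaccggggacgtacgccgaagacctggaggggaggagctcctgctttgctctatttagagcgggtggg

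In the Sox2 window the letters TTGCNNAA, searched for C/EBP factors, begin at position -237 from the start site, and GGGCGGGGC, searched for Krüppel-like factors, matches the opposite strand at position -114. The Elf3 window holds CAAGTG, searched for Nkx2-1, at position -163. Such matches are common: of 32851 windows of this length, 9.56% held TTGCNNAA, 9.94% held GGGCGGGGC and 11.6% held CAAGTG. The letters TGTTTAC, searched for forkhead factors, were in neither window and in 3.17% of all windows. Neither window held AGATAAG, searched for Gata6 and its relatives (2.74% of all windows), or CCGGAAGT, searched for ETS factors (2.88%). Nor did they hold AACCNGTT, searched for grainyhead-like factors (1.79%), CATTGTT, searched for Sox2 and its relatives (3.29%), or the letters TATAAA of a promoter box (12.4%). The letters were chosen after the sequences were seen, the matches overlap nowhere, and a match is a stretch of letters and not a shown binding site.

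Nkx2-1 (probe set 10400474) read 7.90, 8.10 and 8.21 on control arrays 1 to 3 and 8.30, 8.19 and 8.45 on mutant arrays 1 to 3. Mutants 1 and 3 lay above every control, while mutant 2 lay just below control 3, so the groups overlapped. Nkx2-1 averaged 8.07 ± 0.15 (SD, n = 3) in controls and 8.31 ± 0.13 in mutants. The log2 difference was 0.24 (SE 0.11, 95% interval -0.030 to 0.52), a 1.18-fold higher mean, and did not pass limma's test after Benjamini-Hochberg adjustment over all genes (adjusted p = 0.552). An exact two-sided permutation test gave p = 0.2, where 3 against 3 arrays cannot give less than 0.1. The interval reached from 0.979-fold to 1.43-fold, and without control 1 the log2 difference was 0.16.

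Sox2 (probe set 10491477) read 8.60, 8.82 and 8.79 in controls and 9.23, 8.51 and 9.49 in mutants. The mutant arrays spanned the whole range, with mutants 1 and 3 above and mutant 2 below every control. The log2 difference was 0.34 (SE 0.25, interval -0.25 to 0.93; limma adjusted p = 0.717; exact permutation p = 0.4). Without mutant 2 the difference was 0.62, and without mutant 3 it was 0.14, neither past the threshold.

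Gata6 (probe set 10453857) read 8.19, 7.57 and 7.90 in controls and 8.03, 7.88 and 7.88 in mutants. Here the controls were the more scattered group, and all mutants lay within their range. The log2 difference was 0.042 (SE 0.16, interval -0.35 to 0.43; limma adjusted p = 0.964).

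**Figure D1:**
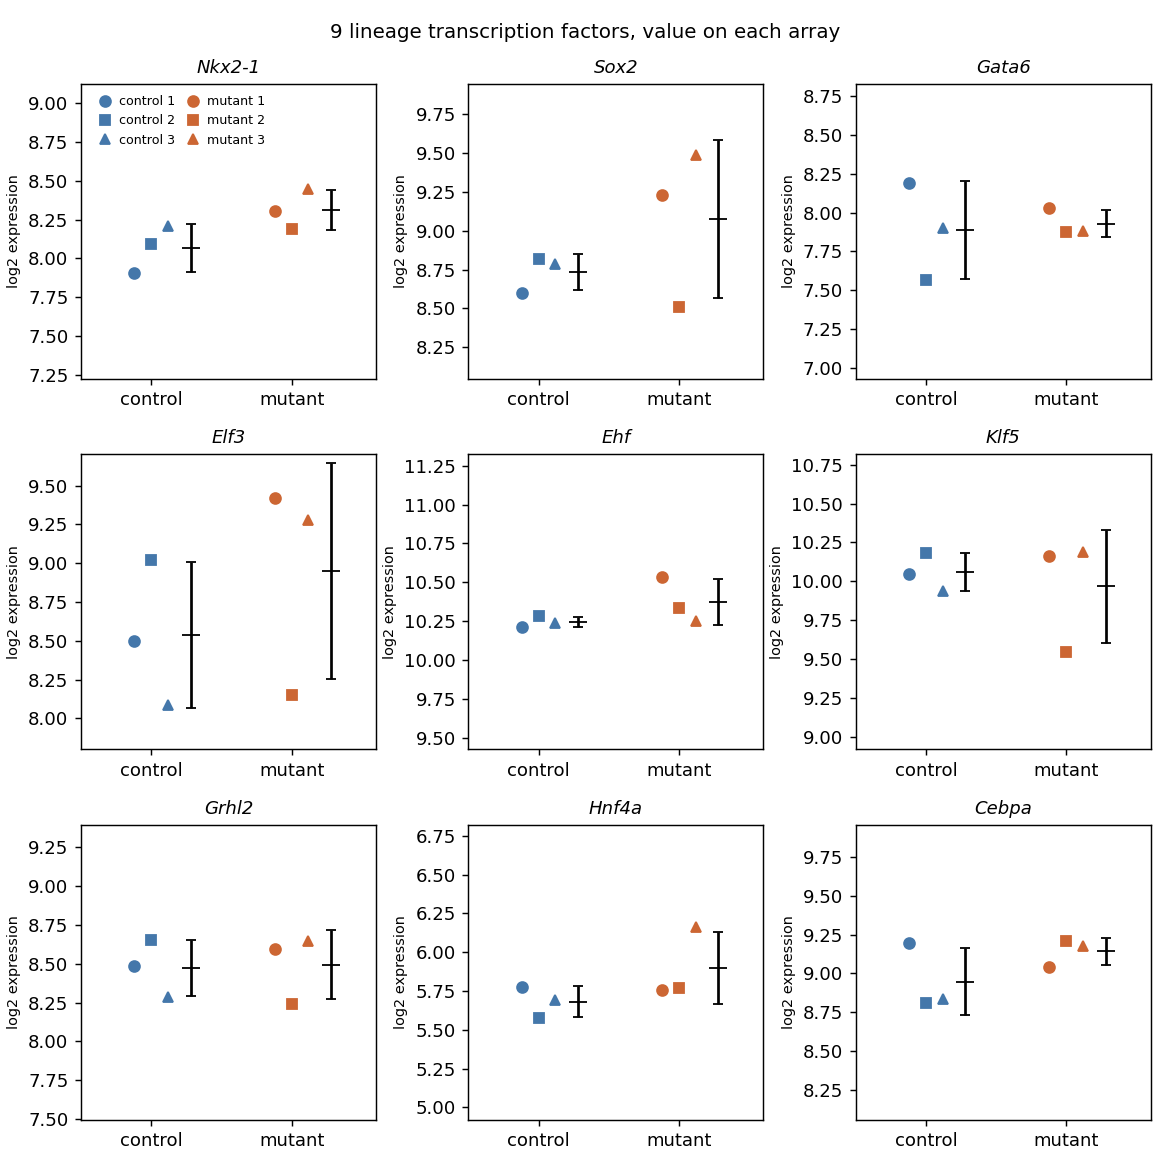
Log2 expression of the 9 factors (y axis, every panel spanning the same number of log2 units) on the 3 control and 3 mutant arrays (x axis); each symbol is 1 array and the bars give the group mean ± SD. Control and mutant arrays overlap in every panel, and mutant 2 is the lowest array for Sox2, Klf5 and Grhl2.

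The ETS factors Elf3 and Ehf differed in how far their arrays scattered. Elf3 (probe set 10358027) read 8.50, 9.02 and 8.08 in controls and 9.42, 8.15 and 9.28 in mutants. Mutants 1 and 3 were the highest arrays, and mutant 2 lay next to control 3 at the bottom. Its log2 difference was the largest of the 9 in size, 0.41, with the largest error (SE 0.39, interval -0.51 to 1.34; limma adjusted p = 0.812; exact permutation p = 0.4). Its size depended on single arrays: it was 0.81 without mutant 2 and 0.66 without control 2, but 0.18 without mutant 1, 0.19 without control 3 and 0.25 without mutant 3, and it passed in none of these. Ehf (probe set 10485445) read 10.22, 10.28 and 10.24 in controls and 10.54, 10.33 and 10.25 in mutants, with mutant 3 between the controls. Its log2 difference was 0.13 (SE 0.097, interval -0.10 to 0.36; limma adjusted p = 0.732; exact permutation p = 0.2), and 0.048 without mutant 1. The pooled SD within groups was 0.59 for Elf3, larger than that of 97.2% of all genes, and 0.11 for Ehf.

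Klf5 (probe set 10416777), which in the lung epithelium is known for roles in maturation and repair, was the only factor with a lower mean in mutants. It read 10.05, 10.18 and 9.94 in controls and 10.16, 9.55 and 10.19 in mutants. Mutants 1 and 3 lay close to the highest control and mutant 2 alone below the control range. The log2 difference was -0.091 (SE 0.19, interval -0.54 to 0.36; limma adjusted p = 0.932), and without mutant 2 it was 0.12. Grhl2 (probe set 10423770) read 8.48, 8.65 and 8.29 in controls and 8.59, 8.24 and 8.65 in mutants. Its group means were almost the same, 8.47 and 8.49 (log2 difference 0.021, SE 0.15, interval -0.33 to 0.37; limma adjusted p = 0.981).

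Hnf4a (probe set 10478389) read 5.77, 5.58 and 5.69 in controls and 5.76, 5.77 and 6.16 in mutants. Mutant 3 was high, and the other mutants lay at the level of control 1. The log2 difference was 0.22 (SE 0.13, interval -0.11 to 0.54; limma adjusted p = 0.667; exact permutation p = 0.3), and 0.082 without mutant 3. All of its values lay near the medians of the arrays (5.89 to 5.95 over all probe sets), where RMA values compress differences, and no detection call was available, so it is not shown that Hnf4a was above background. Cebpa (probe set 10552140) read 9.19, 8.81 and 8.84 in controls and 9.04, 9.21 and 9.17 in mutants. Control 1 lay with the mutants, which were all above controls 2 and 3. The log2 difference was 0.20 (SE 0.13, interval -0.11 to 0.50; limma adjusted p = 0.679; exact permutation p = 0.3). It was 0.32 without control 1 and 0.13 without control 2.

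**Figure D2:**
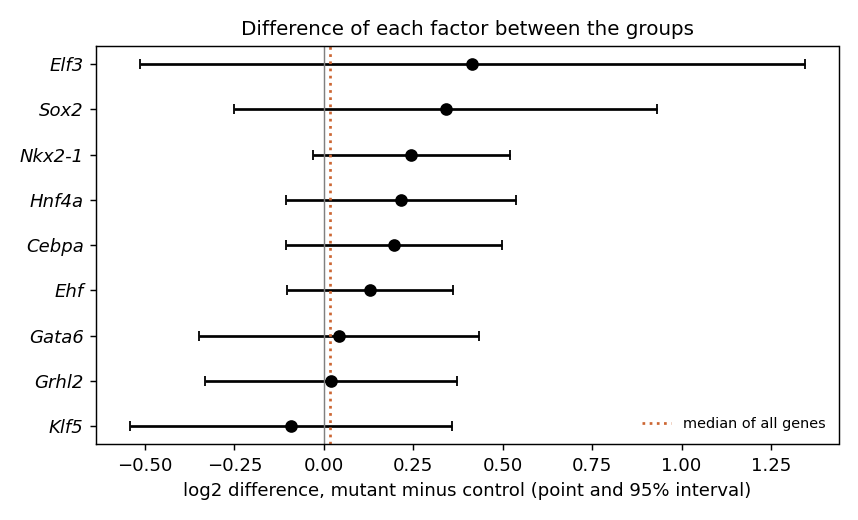
Log2 difference between mutant and control means (x axis) for each of the 9 factors (y axis), as a point with its 95% interval from limma. Every interval includes 0; the dotted line marks the median of all genes, 0.016.

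Of the 9 factors, 0 passed at an adjusted p under 0.05 in limma, where 0.266% of all 19938 genes did. At an unadjusted p under 0.05 the count was also 0, against 10.1% of all genes. In 0 of the 9 did the control and mutant arrays fail to overlap, against 15.0% of all genes (9.33% with mutants higher and 5.64% with mutants lower). The differences of 8 factors were above 0 and that of Klf5 below, with a median of 0.20, whereas 54.6% of all genes were above 0 with a median of 0.016. With the mean of 12 epithelial markers made equal on all arrays, 5 of the 9 were above 0 and 4 below, with a median of 0.039 against -0.141 for all genes. The intervals bound the size of a difference in RNA of the dissected tissue that could have gone unseen. Upper ends were 1.29-fold for Ehf and 1.30-fold for Grhl2, but 1.91-fold for Sox2 and 2.54-fold for Elf3. Lower ends reached 0.687-fold for Klf5 and 0.700-fold for Elf3. A p above the threshold does not show that a factor was unchanged.

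Several factors were high or low on the same arrays as the mean of general epithelial markers. The mean of 12 general epithelial markers, among them Epcam, Cdh1 and the keratin genes Krt8, Krt18 and Krt19, was 9.97, 10.05 and 9.78 in controls and 10.18, 9.76 and 10.32 in mutants. The arrays with the lowest means, mutant 2 and control 3, were also the lowest for Elf3 and Grhl2, and mutants 1 and 3, with the highest means, were the highest for Elf3 and Sox2. Of these markers 9 had a difference above 0 and 0 passed the test, with a median difference of 0.18. In bulk samples, fewer cells of a type and less RNA per cell cannot be told apart.

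Over the 6 arrays, Elf3 followed the epithelial mean with Pearson r = 0.95 and Spearman rho = 0.89 (exact permutation p = 0.0111 and 0.0333). Grhl2 followed it with r = 0.91 and rho = 0.83 (exact permutation p = 0.0208 and 0.0583). Sox2 gave r = 0.89 and rho = 0.94 (exact permutation p = 0.0181 and 0.0167), and Klf5 gave r = 0.80 and rho = 0.94 (exact permutation p = 0.0292 and 0.0167). These are 4 of 13 relations computed, and none passed after Benjamini-Hochberg adjustment over the 13 (smallest adjusted p = 0.0903 for r and 0.108 for rho, from exact permutation). Without mutants 2 and 3, the arrays farthest from the median epithelial mean, r was 0.98 for Elf3, 0.89 for Grhl2, 0.67 for Sox2 and 0.92 for Klf5. With each group's mean removed, r was 0.94, 0.96, 0.87 and 0.97 in the same order. All values of an array come from the same RNA sample. The epithelial marker list holds Cdh1, Cldn3, Epcam, Esrp1 and Rab25, which are also in the list of genes that Grhl2 is known to keep active. The mean of 9 ciliated cell markers was 9.84, 10.03 and 9.68 in controls and 9.88, 9.25 and 9.99 in mutants. Like Klf5 and the epithelial mean, it was lowest on mutant 2. Relations of the factors with ciliated, club or basal cell markers were not tested, so the relation of Klf5 need not be to epithelium in general.

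The other 5 factors had lower r with the epithelial mean over the 6 arrays: r was 0.59 for Hnf4a, 0.52 for Nkx2-1, 0.28 for Ehf, 0.16 for Cebpa and -0.021 for Gata6, with exact permutation p between 0.208 and 0.958. Without mutants 2 and 3, r was 0.071 for Hnf4a, 0.24 for Nkx2-1, 0.79 for Ehf, 0.29 for Cebpa and -0.027 for Gata6, so that Ehf then lay above Sox2. Whether these values differ from those of Elf3, Grhl2, Sox2 and Klf5 was not tested. Gata6 is also known from cardiac and smooth muscle. Its r was 0.63 with the cardiac muscle markers and 0.73 with the smooth muscle markers (exact permutation p = 0.172 and 0.0903), and the latter was 0.11 without control 1 and mutant 1. With group means removed these were 0.64 and 0.73. Cebpa, known from adipocytes, had r = 0.65 with the adipocyte markers (exact permutation p = 0.143). The adipocyte mean was highest on control 1 (8.80) and mutant 2 (7.81), and r was 0.34 without these arrays and 0.89 with group means removed. With myeloid markers its r was -0.036.

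**Figure D3:**
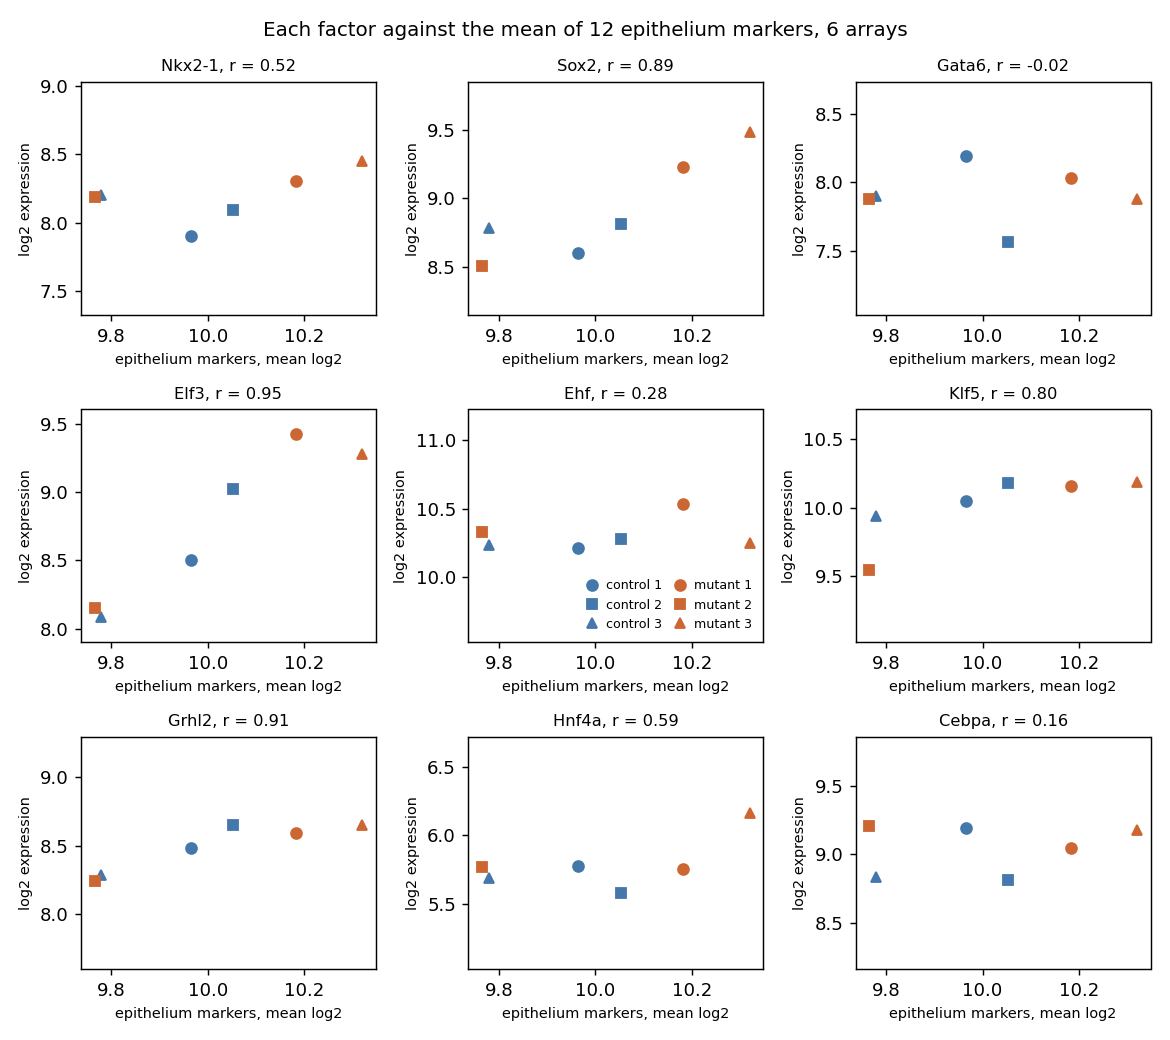
Log2 expression of each factor (y axis) against the mean log2 value of the 12 epithelium markers (x axis) on the 6 arrays, 1 symbol per array, with Pearson's r in each title. Elf3 and Grhl2 are lowest on mutant 2 and control 3, the arrays with the lowest marker means, while Gata6 and Cebpa show no such order.

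When every array was shifted so that the epithelial mean was equal on all, the difference of Elf3 became 0.26, that of Sox2 0.18 and that of Nkx2-1 0.087. This scaling takes the same amount from the difference of every gene, and it moved the median of all genes from 0.016 to -0.141. Grhl2 (-0.136), Gata6 (-0.115) and Ehf (-0.028) came out below 0 by that construction, and Klf5 stood at -0.25. Against the median of all genes, only Klf5 of the 9 was lower, and Grhl2 lay close to it, as on the deposited scale. None of the 9 passed limma's test on this scale (adjusted p from 0.969 to 0.987), where 1.45% of all genes did.

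Among the factors themselves, Elf3 and Grhl2 were the most alike over the 6 arrays (r = 0.92), followed by Klf5 and Grhl2 (0.90), Sox2 and Elf3 (0.82) and Nkx2-1 and Sox2 (0.81). The ETS factors Elf3 and Ehf had r = 0.51. Gata6 and Cebpa had r = 0.62 with each other, both being highest or nearly so on control 1. The genes most like each factor were also listed, with r over 6 arrays as the measure of likeness, which with so few arrays is high for many genes: between 131 genes for Ehf and 412 for Klf5 had r above 0.9. They were Stpg1 (r = 0.995), Pfn2 and R3hdml for Sox2, Iqcc (0.996), Heatr9 and Igdcc3 for Nkx2-1, and Trpm4 (0.994), Ccdc96 and Kptn for Elf3. For Klf5 they were Tarbp2 (0.995), Casc1 and the ciliated cell gene Tppp3, and for Grhl2 Serpina9 (0.991), Muc3 and Zfp512b. For Gata6 they were Marchf2 (0.995), Cdsn and Khdc1a, for Ehf Ostn (0.989), Strn4 and Siah1b, for Hnf4a Dleu7 (0.994), Fmr1os and Tnc, and for Cebpa Amy1 (0.992), Atf7 and Tgm7.

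Of the listed genes that Nkx2-1, Grhl2 and Hnf4a are known to activate, 0 passed in limma, where 0.266% of all genes did. Of 11 measured targets of Nkx2-1, 0 passed in limma, 9 had differences above 0, and the median was 0.20. The surfactant protein gene Sftpa1 read 12.09, 12.01 and 12.24 in controls and 12.35, 12.59 and 12.59 in mutants, so every mutant lay above every control (log2 difference 0.40, limma adjusted p = 0.306). The same held for Sftpc (0.20), Scgb1a1 (0.25) and Lamp3 (0.55), and 4 of the 11 were separated in this way, against 9.33% of all genes. Without control 1 and mutant 2, Lamp3 passed (0.50, limma adjusted p = 0.0481), in a setting where 4.83% of all genes passed. The alveolar type 2 marker mean, in which Sftpa1, Sftpc and Lamp3 also take part, was 11.04, 10.94 and 11.17 in controls and 11.32, 11.44 and 11.25 in mutants. Its part in these values was not tested.

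Of 10 targets of Grhl2, 0 passed and the median was 0.092. Erbb3, which encodes a receptor of the EGF receptor family, had the smallest p, with 7.63, 7.85 and 7.71 in controls and 8.24, 8.02 and 8.20 in mutants. All mutants lay above all controls, as for 9.33% of all genes, with a log2 difference of 0.42 (SE 0.10, limma adjusted p = 0.248). The junction gene Epcam (0.20) and the protease inhibitor gene Spint1 (0.23) had overlapping groups, as had Prom2 (0.19). Of 9 targets of Hnf4a, 0 passed and the median was -0.018, with Fabp1 at 0.46, Apoa1 at 0.10, Apoa2 at -0.22 and Lgals4 at -0.27. The mean of these 9 lay between 5.58 and 6.21 on the arrays, close to the array medians, and no detection call was available.

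Another 89 transcription factors were chosen as relatives of the 9 or as markers of airway lineages. Of these, 0 passed in limma, where 0.266% of all genes did, and the median was 0.018. At an unadjusted p under 0.05 there were 8 of them, or 8.99%, beside 10.1% of all genes. In 7.87% of the 89 every mutant lay above every control and in 5.62% below, beside 9.33% and 5.64% of all genes. Etv5, an ETS factor of the distal lung epithelium, had the smallest p. It read 9.34, 9.11 and 9.08 in controls and 9.89, 9.92 and 9.90 in mutants, so that the mutants lay close together above every control (log2 difference 0.73, SE 0.096, limma adjusted p = 0.0581). It passed in limma with array weights (adjusted p = 0.00984), with an intensity trend (0.0479), without control 1 (0.0182) and without control 1 and mutant 2 (0.0111), settings in which 1.46%, 0.411%, 1.95% and 4.83% of all genes passed. Control 1 was the highest control for Etv5, so leaving it out by itself widened the difference, to 0.81. Array weights also counted control 1 for little (0.505, against 2.38 for control 3), so these settings are not independent of each other. As Etv5 is also known from alveolar type 2 cells, the marker means given above for these cells stand beside it.

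Among factors of single lineages, Hes1, a Notch-responsive repressor that favours secretory cells, read 9.43, 9.53 and 9.61 on control arrays and 9.87, 9.76 and 10.17 on mutant arrays, without overlap (log2 difference 0.41, SE 0.13, limma adjusted p = 0.356). Its relative Hey1 stood at -0.24, the goblet cell factor Spdef at 0.11 and Xbp1, which acts in secretory capacity, at -0.13. The basal cell factor Trp63 read 7.79, 6.56 and 6.31 in controls and 7.63, 6.58 and 7.21 in mutants, with control 1 the highest array (log2 difference 0.25, limma adjusted p = 0.917). Without control 1 and mutant 2 its difference was 0.98 (limma adjusted p = 0.0378), a setting in which 4.83% of all genes passed. These arrays were its highest control and its lowest mutant, so leaving them out by itself widened the difference. The ciliated cell factors Trp73 (-0.34), Myb (0.17) and Mcidas (0.17) did not pass. Trp73 was lowest on mutant 2, at 6.24 against 7.23 or more on the other arrays, and the ciliated marker mean was also lowest there, at 9.25 against 9.68 or more. Tfcp2l1 stood at 0.44 (limma adjusted p = 0.306). All mutants lay above all controls, as for Hes1 and for 9.33% of all genes.

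Relatives of the 9 by family were not called either, beside a share of 0.266% over all genes. In the GATA family Gata3, a factor of T lymphocytes and of some epithelia, read 6.31, 6.49 and 6.65 in controls and 6.03, 6.05 and 5.89 in mutants, all below the controls (log2 difference -0.50, SE 0.11, limma adjusted p = 0.212). It passed in limma with array weights (adjusted p = 0.0420) and without control 1 and mutant 2 (0.0474), where 1.46% and 4.83% of all genes passed. The mean of 7 T and NK cell markers was 6.44, 8.35 and 8.18 in controls and 6.10, 7.02 and 6.03 in mutants, and its part in the values of Gata3 was not tested. Elf4, an ETS factor known from lymphocytes, stood at -0.63 with overlapping groups (limma adjusted p = 0.537). It was highest on controls 2 and 3 (8.74 on each), where the lymphocyte markers were highest too. Without control 1 and mutant 2 it stood at -1.13 (limma adjusted p = 0.00555). For Elf4 as for Gata3 these arrays were the lowest control and the highest mutant, so leaving them out by itself widened the difference. The array weights were also lowest for these arrays (0.505 for control 1 and 0.484 for mutant 2). The settings in which Gata3 passed are therefore not independent of each other. The airway and mammary factor Elf5 stood at 0.33.

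The grainyhead-like genes other than Grhl2 pointed in opposite directions without passing. Grhl1 averaged 6.71 ± 0.17 (SD, n = 3) in controls and 6.21 ± 0.24 in mutants, with a difference of -0.50 (SE 0.15, limma adjusted p = 0.353), and Grhl3 averaged 5.77 and 6.06 (0.29, adjusted p = 0.482). In each the groups did not overlap, as for 5.64% of all genes with mutants lower and 9.33% with mutants higher. The values of Grhl3 lay near the array medians. The Krüppel-like gene Klf2, a factor of endothelium and resting lymphocytes, stood at -0.36 with all mutants below all controls (limma adjusted p = 0.397). The SOX gene Sox11 stood at -0.63 (limma adjusted p = 0.370), from a control mean of 5.94 that lay near the array medians. Cebpb stood at 0.010, Cebpd at -0.081 and Cebpg at 0.21.

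**Figure D4:**
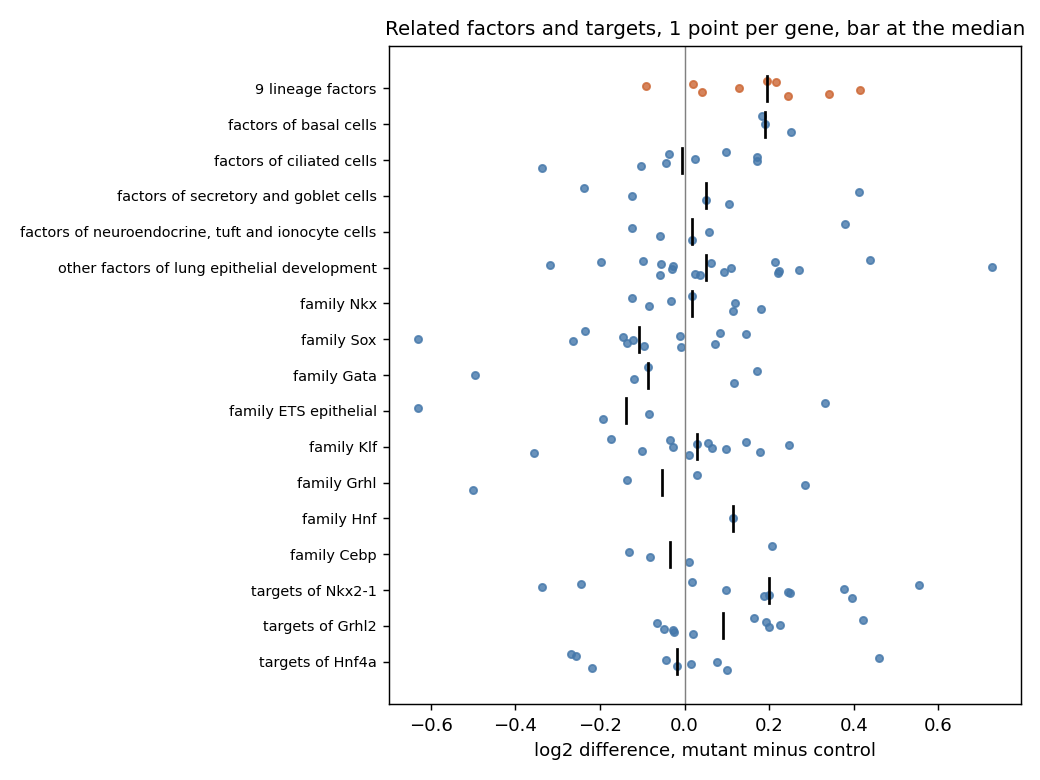
Log2 difference between mutant and control means (x axis) for the 9 factors and for the genes of each related list (y axis); each point is 1 gene and the bar is the list's median. The points of every list lie between -0.63 and 0.73, and list medians lie between -0.14 and 0.20.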

How the data were processed

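RNA of each of the 6 samples was labelled with an Affymetrix kit and read on 1 array. What the authors deposited are log2 values, 1 per probe set and array. RMA, oligo and limma are named, without versions, in the submitters' processing notes, and joint normalisation of the arrays is not stated there. RMA subtracts background, forces arrays to one distribution and combines probes, so differences of dim probe sets come out too small. Scanner files were not used here, so there is no detection call and no scan batch was examined.

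Of 35556 rows, 21789 named exactly 1 gene, and where several rows named a gene the brightest on average was kept, leaving 19938 genes. Genotypes were compared over all genes in limma 3.58.1 under R 4.3.3 (lmFit and eBayes, genotype as the only term, two-sided, Benjamini-Hochberg, threshold 0.05), which also gave the standard errors and 95% intervals. The fit was tested on simulated data. Exact permutation tests and correlations were run in Python 3.11.15. Promoter windows are RefSeq's on GRCm38.p6.

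The members and the lists of related genes and markers were chosen with earlier results of these data known. Named genes were the 9 factors, up to 4 genes of each list by smallest p, and the 3 genes most alike to each factor by Pearson's r, passing over olfactory and vomeronasal receptors, small RNAs and predicted transcripts. Alternatives were other scalings, leaving out the lowest 40% of genes, a replicate block, array weights, averaging a gene's rows, other variance models and leaving out arrays.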

Additional observations from a re-analysis of the deposited data

How the results depend on the processing

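Over 17 alternatives (16 for Hnf4a, which the filter on low values left out), 0 of the 9 factors passed in limma in any. The median difference of the 9, 0.20 as reported, ranged from 0.039 with the epithelial mean equalised to 0.23 with array weights, and was 0.12 without controls 2 and 3. Nkx2-1, Sox2, Elf3 and Hnf4a stayed above 0 in all that were run. The limma adjusted p of Nkx2-1 ranged from 0.263 to 0.969 and that of Sox2 from 0.0733 to 0.969. At an unadjusted p under 0.05 there were 4 of the 9 with array weights, where 3809 of the 19938 genes were, 3 without mutant 2 (2288 genes), 3 without control 1 and mutant 2 (3546), and 1 each with median centring (2170), without control 1 (2790) and without controls 2 and 3 (1542). With the epithelial mean equalised, Gata6 was -0.11, Ehf -0.028 and Grhl2 -0.14, because that scaling shifts every gene's difference alike. Other alternatives turned the signs of Gata6, Grhl2, Klf5 and Cebpa, and the cause was not tested. With array weights Klf5 was 0.091. Gata6 was -0.26 and Cebpa -0.052 without controls 2 and 3, and Klf5 was 0.11 without control 1 and mutant 2. With 1 array left out, Gata6 ranged from -0.12 to 0.20, Grhl2 from -0.072 to 0.15 and Klf5 from -0.20 to 0.12; the turned values were -0.12 for Gata6 without control 2, -0.0078 for Gata6 and -0.029 for Grhl2 without mutant 1, -0.072 for Grhl2 without control 3, -0.056 for Grhl2 without mutant 3 and 0.12 for Klf5 without mutant 2.

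Of the 119 related genes, 0 passed in the fit as reported, 2 with array weights, 1 with an intensity trend, 5 without control 1 and mutant 2, and 0 to 1 with 1 array left out, the 1 being Etv5 without control 1. The count over all genes was 53, and moved to 289 with the epithelial mean equalised, 291 with array weights, 82 with an intensity trend, 0 without controls 2 and 3 (limma, 1542 at an unadjusted p under 0.05; the lone control is assumed to vary like the mutants), and 963 without control 1 and mutant 2. With 1 array left out it ranged from 9 to 388. Leaving out control 1 gave 388, control 2 gave 9 and control 3 gave 10, while leaving out mutant 1, 2 or 3 gave 16, 24 or 15. Replicate numbers run from 1 to 3 in both genotypes. Same-numbered samples did not deviate together (correlations of 0.14, -0.091 and -0.040 across genes), so the numbers were not taken as pairs. With the replicate block limma called 0 genes of all (1945 at an unadjusted p under 0.05), 0 of the 9 factors and 0 related genes.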
